A study of Homo sapiens and Mus musculus with 61 samples.

Results

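The pericentromeric regions are the listed 300 bp regions on chromosomes 1 to 22 whose centre lies within 3 Mb of a run of at least 1 Mb of unknown bases in the hg19 chromosome sequence. Over the 17 tables that compare a guide with sgGal4 there were 4809 such regions among 143198, or 3.36%. Overlapping regions of different tables were joined into loci, which gave 1443 pericentromeric loci among 44682. The tables come from K562, an established human leukaemia line that carries a biotin-tagged, catalytically inactive Cas9 (dCas9); the DNA pulled down with it on streptavidin was sequenced. There were 42 libraries with a guide to the beta-globin cluster on chromosome 11 and 4 libraries with sgGal4, a guide with no intended human target. The guides are named for the globin genes HBB, HBD (sgHBD-1kb) and HBG, for the hypersensitive sites HS1 to HS5 and for 3'HS1; sgHS1-5 is a pool of guides. A guide had 1 library (sgHBB, sgHS2-sg2, sgHS3-sg2), 3 (sgHS3, sgHS5), 4 (sgHBG), 5 (sgHS2), 6 (the pool) or 2 (all others). Every group shares the dCas9 line, and the same 4 sgGal4 libraries serve as control in every table, so results of different tables are not independent.

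Centromeres are the chromosome parts on which the kinetochore assembles, and in human cells they consist of alpha satellite, a tandem repeat whose CENP-B box is bound by the protein CENP-B. The flanks hold further satellites, rich in the unit CATTC, and segmental duplications, which are long near-identical copies of sequence from elsewhere. In hg19 the satellite arrays are mostly written as unknown bases, which is why long runs of them mark the centromeres. A guide RNA leads Cas9 to a site that matches it next to a short motif, NGG, and the bases nearest to that motif, the seed, matter most for binding away from the target. In what follows a log2 ratio is the log2 of the mean linear guide level over the mean linear sgGal4 level, as in the deposited tables. Regions whose Benjamini-Hochberg adjusted p in limma was below 0.05 were called raised where the log2 ratio was 1 or more and lowered where it was -1 or less.

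Some pericentromeric regions with high log2 ratios hold sites that resemble the guide targets, and others do not. No source used here gives the guide sequences. A candidate target site was therefore read for each table from the hg19 sequence around its target: the site whose 10 bases next to NGG recurred in at least 3 of the 50 highest regions outside the cluster. Pericentromeric regions took no part in that choice. A candidate was found in 11 of the 17 tables. That of the pool was the sgHS3 candidate alone. The candidate sites below are shown 5′ to 3′, with the 20 bases in capitals and the NGG motif in lower case; they lie at chr11:5309558-5309580, chr11:5305921-5305943, chr11:5312559-5312581, chr11:5306222-5306244 and chr11:5271218-5271240, all on the minus strand.
sgHS4 candidate: CCCACTCAGCAGCTATGAGAtgg
sgHS3 candidate: GAGAGATAGACCATGAGTAGagg
sgHS5 candidate: TGCCCCCACCTTACAGGGACagg
sgHS3-sg2 candidate: AGGAATCATTCTGTGGATAAagg
sgHBG candidate: GCTAAACTCCACCCATGGGTtgg

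The pericentromeric regions that hold a match carry it as follows, with capitals for bases identical to the candidate at the same position. They are shown because they include the 4 regions with the highest log2 ratios, at ABCC11, MICAL3, UQCRFS1 and NCAPH. The ABCC11 site is at chr16:48246016-48246038 (minus strand), the MICAL3 site at chr22:18400674-18400696 (plus), the NCAPH site at chr2:97080214-97080236 (minus) and the N4BP1 site at chr16:48976739-48976761 (minus). The UQCRFS1 site is at chr19:29037217-29037239 (plus) and the VSTM2B site at chr19:29885334-29885356 (minus).
ABCC11, sgHS4: aCttCTCAGCAGCTATGAGAagg
MICAL3, sgHS4: aggtaagccCAGCTATGAGAagg
NCAPH, sgHS4: gatggTgAcaAGCTATGAGAggg
N4BP1, sgHS4: CCaAaatgtCAGCTATGAGAcgg
UQCRFS1, sgHS5: cagaagCctgTTACAGGGACtgg
VSTM2B, sgHS3: tcagttgttcCCATGAGTAGagg

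Listed loci were sparse next to the centromere gaps. There were 5.90 loci per Mb of known sequence within 0.5 Mb of a gap (119 loci), 9.92 per Mb from 0.5 to 1 Mb, 12.9 per Mb from 1 to 2 Mb and 17.03 per Mb from 2 to 3 Mb, against 16.5 per Mb beyond 3 Mb. The nearest region lay 2933.5 bp from a gap, on chromosome 18, and the members next to the limit lay at 2.99992 Mb, with the nearest region outside at 3.00009 Mb. Gene starts were also farther from the loci next to a gap. The median distance of a locus to a protein-coding transcription start was 119240 bp within 0.5 Mb, 24084 bp from 0.5 to 1 Mb and 10668 bp from 2 to 3 Mb. Only uniquely aligned reads were kept, per the labels, and the part of this in the gradient was not tested.

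The density also varied between chromosomes. The windows of chromosomes 3 and 9 held 1.83 and 1.86 loci per Mb, against 13.3 and 14.1 per Mb in the rest of those chromosomes. Chromosome 19, whose centromere flanks hold clusters of zinc-finger genes, had 14.3 per Mb in its window and 47.9 elsewhere. On chromosome 17 the densities were 28.6 and 28.6. Chromosomes 18 and 14 had more loci per Mb near the gap than elsewhere, with 17.3 against 10.4 and 20.7 against 13.1. By number of regions, chromosome 17 (620, or 12.9% of all pericentromeric regions) and chromosome 20 (609, or 12.7%) gave the most, and chromosomes 3 (32) and 9 (33) gave the fewest.

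**Figure D1:**
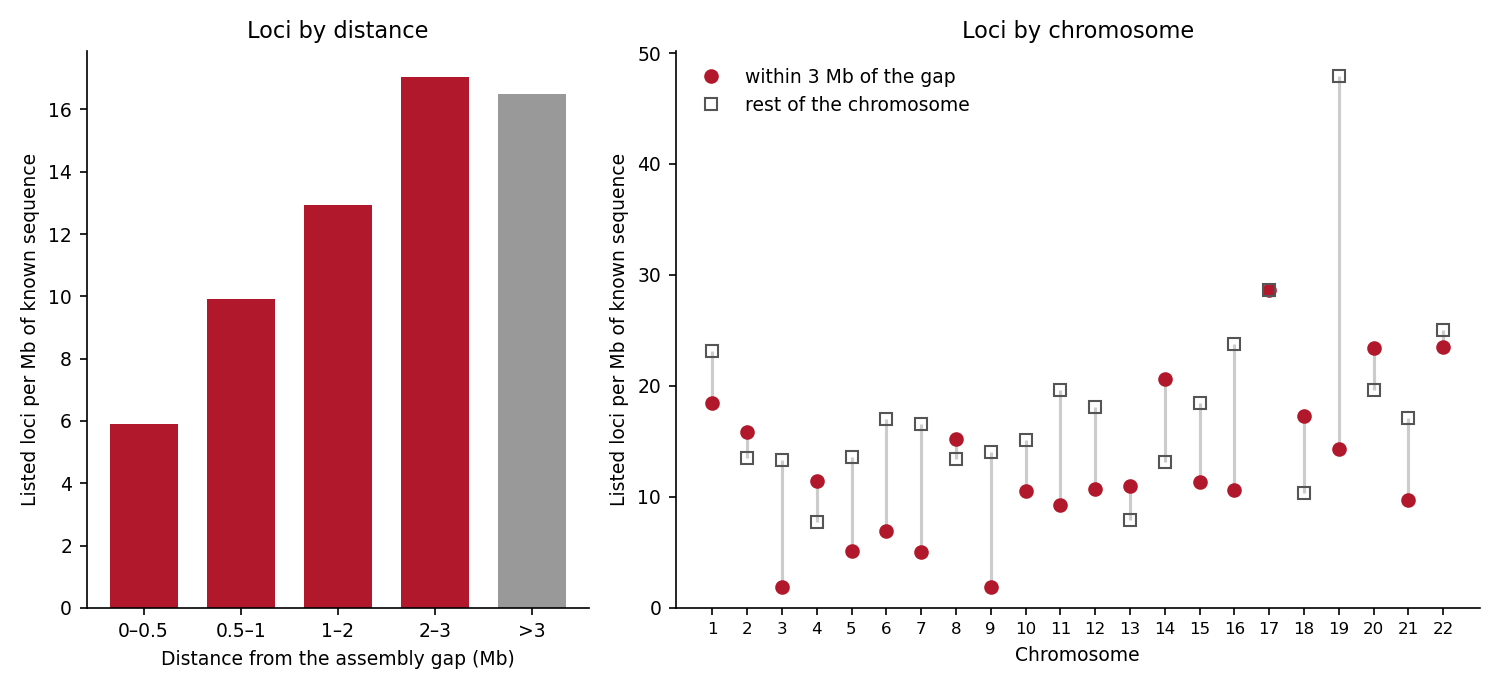
Listed loci per Mb of known hg19 sequence, by distance from the assembly gap (left, bars; red within 3 Mb, grey beyond) and by chromosome (right; filled circles, windows within 3 Mb; open squares, rest of the chromosome). The density rose from 5.90 per Mb next to the gaps to 17.03 at 2 to 3 Mb, and the windows of chromosomes 3, 9 and 19 held 1.83, 1.86 and 14.3 loci per Mb against 13.3, 14.1 and 47.9 in the rest of those chromosomes.

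Satellite motifs were rare in the pericentromeric loci. The core of the CENP-B box, searched on both strands, was in 0 of 1443 loci and in 19 of the 43239 others (0.0439%). Back-to-back copies of CATTC, also searched on both strands, were in 2 pericentromeric loci (0.139%) and in 42 others (0.0971%). One of these, from chr1:142966957, holds them 4 times, and the sgGal4 libraries had 0 reads there. Tandem repetition was measured as the share of bases that equal the base a fixed number of positions further on, within 1000 bp. It reached 50% at 11 pericentromeric loci (0.762%) and at 108 others (0.250%). The highest value, 81.4% at a period of 343 bp, was at chr18:15407805-15408104, the region closest to a gap; it was listed in 2 tables with a mean of 3.75 sgGal4 reads and a median log2 ratio of 0.32.

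In base composition and place the loci were close to the rest. The median GC content was 52.3% against 51.7%, and both had a median of 6 CpG per 300 bp. Within 1 kb of a protein-coding start lay 27.4% of pericentromeric loci and 25.8% of the others. Between protein-coding genes lay 50.4% against 43.3%, in introns 27.0% against 33.3%, and in exons 22.6% against 23.3%. A locus was listed in all 17 tables in 127 cases (8.80%, against 8.37% of the other loci) and in 1 table in 814 cases (56.4% against 57.8%).

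Read numbers were small. The deposited log2 levels of a library lie on a line in the log2 of whole numbers, from which reads per region were recovered. Summed over a table, the listed reads came to 41128 to 169968 for sgGal4 replicates 1 and 2 but to 6499 to 18647 for replicates 3 and 4. A pericentromeric locus had a median of 2.5 reads in the mean of the sgGal4 libraries, as did the others, and 1.87% of pericentromeric loci reached 10 reads, against 1.95%. The reads are totals over listed regions and not the depth of a library. In replicate 3, 21.8% to 39.2% of the pericentromeric regions of a table had 0 reads, and in replicate 4, 21.8% to 38.4%, and at such counts small differences were not detectable. The labels number the libraries of a guide but do not say that they came from separate cultures, so p-values measure only the spread between libraries. In the 3 tables with 1 guide library, that library was assumed to vary like the sgGal4 libraries.

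The locus with the most sgGal4 reads hosts a microRNA. The region chr20:26188744-26189043 overlaps an exon of MIR663AHG, a long noncoding RNA gene that hosts the microRNA miR-663a, 0.131 Mb from the gap of chromosome 20 and 511404 bp from the nearest protein-coding start, that of ZNF337. It had 255, 463, 108 and 76 reads in sgGal4 replicates 1 to 4, a mean of 225.5. No other pericentromeric locus reached 100 reads, and the highest of the 43239 loci elsewhere had 98.3. The sequence is shown because this was the most covered locus of the series in sgGal4; it has 72.0% GC and 30 CpG, and its capitals mark the 22 bases complementary to miR-663a (chr20:26188879-26188900, minus strand). The mature miRNA is given from RefSeq with its seed, bases 2 to 8, in capitals; the RefSeq table is of build GRCh38.p14 and the place in hg19 was found by the sequence.
chr20:26188744-26189043: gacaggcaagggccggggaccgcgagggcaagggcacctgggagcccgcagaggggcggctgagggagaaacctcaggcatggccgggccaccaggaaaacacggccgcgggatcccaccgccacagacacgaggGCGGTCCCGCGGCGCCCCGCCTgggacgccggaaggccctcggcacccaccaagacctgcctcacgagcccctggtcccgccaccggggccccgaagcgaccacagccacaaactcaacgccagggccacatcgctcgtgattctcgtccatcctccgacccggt
hsa-miR-663a: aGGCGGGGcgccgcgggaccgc

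The MIR663AHG locus was listed in 8 tables and was called in none of them. The sgHBG libraries had 353, 164, 233 and 475 reads there, with a log2 ratio of -0.02 (limma adjusted p = 0.973). The sgHS5 libraries had 216, 635 and 380 reads, and the lowest log2 ratio, -1.08 (limma adjusted p = 0.326). The sgHS1 libraries had 189 and 158 reads, with the highest log2 ratio, 0.10 (limma adjusted p = 0.851). The locus alone held 21.2% of the reads that the sgHS1 libraries had in pericentromeric regions, 15.8% in sgHS2 and 13.3% in sgHBG. It was also large in sgGal4. In the sgHS1 table, sgGal4 replicates 1 to 4 had 255 of 1641, 463 of 2841, 108 of 367 and 76 of 309 pericentromeric reads there.

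Of the 5 loci with the most sgGal4 reads among those listed in all 17 tables, 3 lay at USP25, RNU1-59P and DNMT3B, with 15.1 to 15.2 sgGal4 reads. DNMT3B codes for a DNA methyltransferase that methylates pericentromeric satellites, and its intronic region had log2 ratios from -2.45 to 0.26. The regions in USP25 (a deubiquitinase) and at RNU1-59P (an snRNA gene copy) had ranges from -2.69 to -0.04 and from -0.84 to 0.93. The sequence at RNU1-59P is printed to show a locus listed throughout, with its 7 CpG in capitals.
RNU1-59P, chr1:144534129-144534428: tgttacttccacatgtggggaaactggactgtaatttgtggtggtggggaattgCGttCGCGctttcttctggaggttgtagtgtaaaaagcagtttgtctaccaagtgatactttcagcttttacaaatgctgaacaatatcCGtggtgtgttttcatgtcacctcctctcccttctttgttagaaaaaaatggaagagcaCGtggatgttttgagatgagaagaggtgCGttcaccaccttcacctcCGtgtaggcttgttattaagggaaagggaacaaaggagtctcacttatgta

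The remaining loci of these 5 lay at AP3M2 and ZNF219. The first lies on chromosome 8 from 42009961, 354 bp from the start of AP3M2, which codes for an adaptor protein subunit, and averaged 26.0 sgGal4 reads (31.2, 68.3, 2.53 and 1.94 in replicates 1 to 4, averaged over the intervals of the tables). Its log2 ratio ran from -2.09 to 0.76. The second, chr14:21558499-21558798, covers coding sequence and UTR of an exon of ZNF219, a zinc-finger gene, with 16.7 sgGal4 reads and log2 ratios from -1.87 to 0.51.

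As a share of the reads in a table, pericentromeric regions took 3.09% to 5.39% in the sgGal4 columns (median 3.64%) and 2.53% to 4.77% in the 42 guide libraries (median 3.47%). The guide libraries lay within or across the sgGal4 range in 12 tables. They lay below all 4 sgGal4 libraries in 4 tables, those of sg3'HS1 (3.08% and 3.24% against 3.66% to 4.496%), sgHBD-1kb (2.92% and 2.96% against 3.57% to 4.28%), sgHBB (2.73% against 3.96% to 5.37%) and sgHS2-sg2 (2.53% against 3.10% to 3.40%). The MIR663AHG locus was listed in the sg3'HS1, sgHBD-1kb and sgHBB tables, and its part in these differences was not tested. Guide libraries lay above in the sgHS4 table only, with 4.77% and 4.40% against 3.15% to 3.38%. There, 9 pericentromeric regions held a match to the candidate site and took 48.6% and 51.6% of the pericentromeric reads of the guide libraries, against 0.193% to 1.41% in sgGal4. Without these 9 regions the direction was reversed, with 2.51% and 2.18% in the guide libraries against 3.14% to 3.33% in sgGal4.

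**Figure D2:**
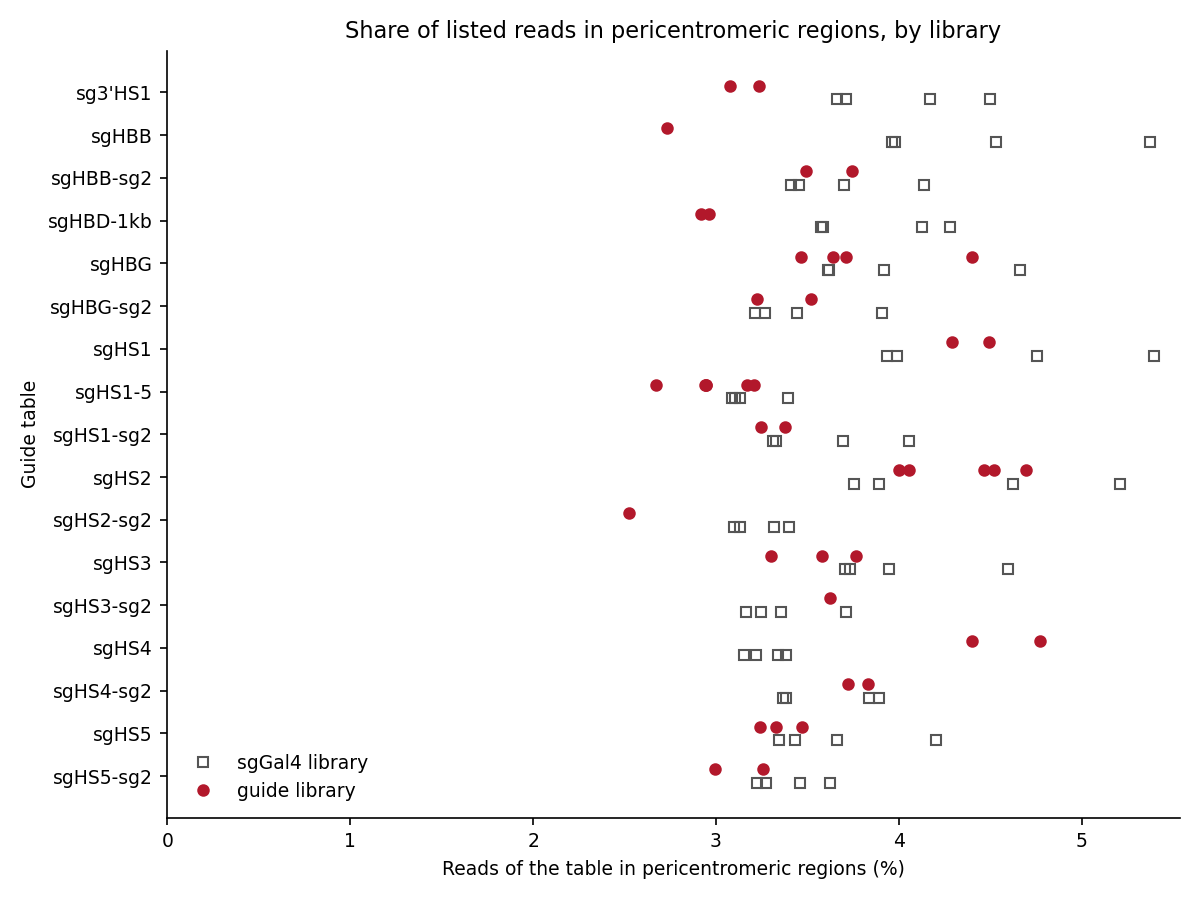
Share of the listed reads of each library that lay in pericentromeric regions, in percent (horizontal), for each guide table (vertical); filled circles are guide libraries and open squares the 4 sgGal4 libraries counted over the same regions. The sgHS4 libraries, at 4.77% and 4.40%, are the only guide libraries wholly above their sgGal4 libraries. Without the 9 regions that hold a match they had 2.51% and 2.18%, below sgGal4 (3.14% to 3.33%).

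Median levels did not set the pericentromeric regions apart. The median log2 level of pericentromeric regions less that of the other regions was -0.05 in sgGal4 (median over tables, with an SD of 0.07 over the 4 libraries) and 0.00 in the guide libraries (SD within guides 0.10). The median log2 ratio of pericentromeric regions less that of the rest was -0.08 over the 17 tables (SD between libraries of a guide 0.07). It was above 0 in 8 tables and below 0 in 9, from -0.30 (sgHS2-sg2) to 0.22 (sgHS3-sg2). The sign of this median changed in 4 of the alternatives given in the closing section, so it carries no direction. By distance, the median log2 ratio was -0.30 within 0.5 Mb of a gap, -0.08 from 0.5 to 1 Mb, 0.04 from 1 to 2 Mb and 0.10 from 2 to 3 Mb, and 0.07 beyond. The regions within 0.5 Mb had a mean of 10.2 sgGal4 reads, which includes the MIR663AHG locus, against 5.29 beyond 3 Mb.

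limma called 76 of the 4809 pericentromeric regions raised (1.58%), against 1.66% of all regions, and 549 lowered (11.4%), against 11.2% of all regions. On the deposited scale these shares are near the background. The split depended on the scale. On recovered reads with a pseudocount of 1, limma called 132 raised (2.75%, against 1.89% of all regions) and 112 lowered (2.33%, against 2.48% of all). With each library centred on the regions outside the windows it called 230 raised (4.78%, against 4.36% of all) and 540 lowered (11.2%, against 11.3% of all). Without both shallow sgGal4 libraries, replicates 3 and 4, it called 1135 raised (23.6%, against 24.4% of all regions). The raised regions lay in 8 tables and 72 loci. They numbered 28 in sgHBD-1kb (9.24% of pericentromeric regions, 9.45% of all), 16 in sgHBG (6.75%, 4.94% of all), 14 in sgHS3 (5.45%, 6.44% of all) and 6 in sgHBB (3.23%, 4.24% of all). There were 4 in sgHBG-sg2 (0.926% of all regions were raised), 4 in sgHS3-sg2 (1.13% of all), 2 in sgHS1-sg2 (0.53% of all) and 2 in sgHS2-sg2 (1.13% of all). None was raised in the other 9 tables, where limma called 0.0187% of all regions in sg3'HS1, 0.517% in sgHBB-sg2, 0.0474% in sgHS1, 0.0533% in the pool, 0.0192% in sgHS2, 0.00932% in sgHS4, 0.529% in sgHS4-sg2, 0% in sgHS5 and 0.52% in sgHS5-sg2. At an unadjusted limma p below 0.05, from 1 (sgHS1) to 77 (the pool) pericentromeric regions of such a table had a log2 ratio of at least 1.

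**Figure D3:**
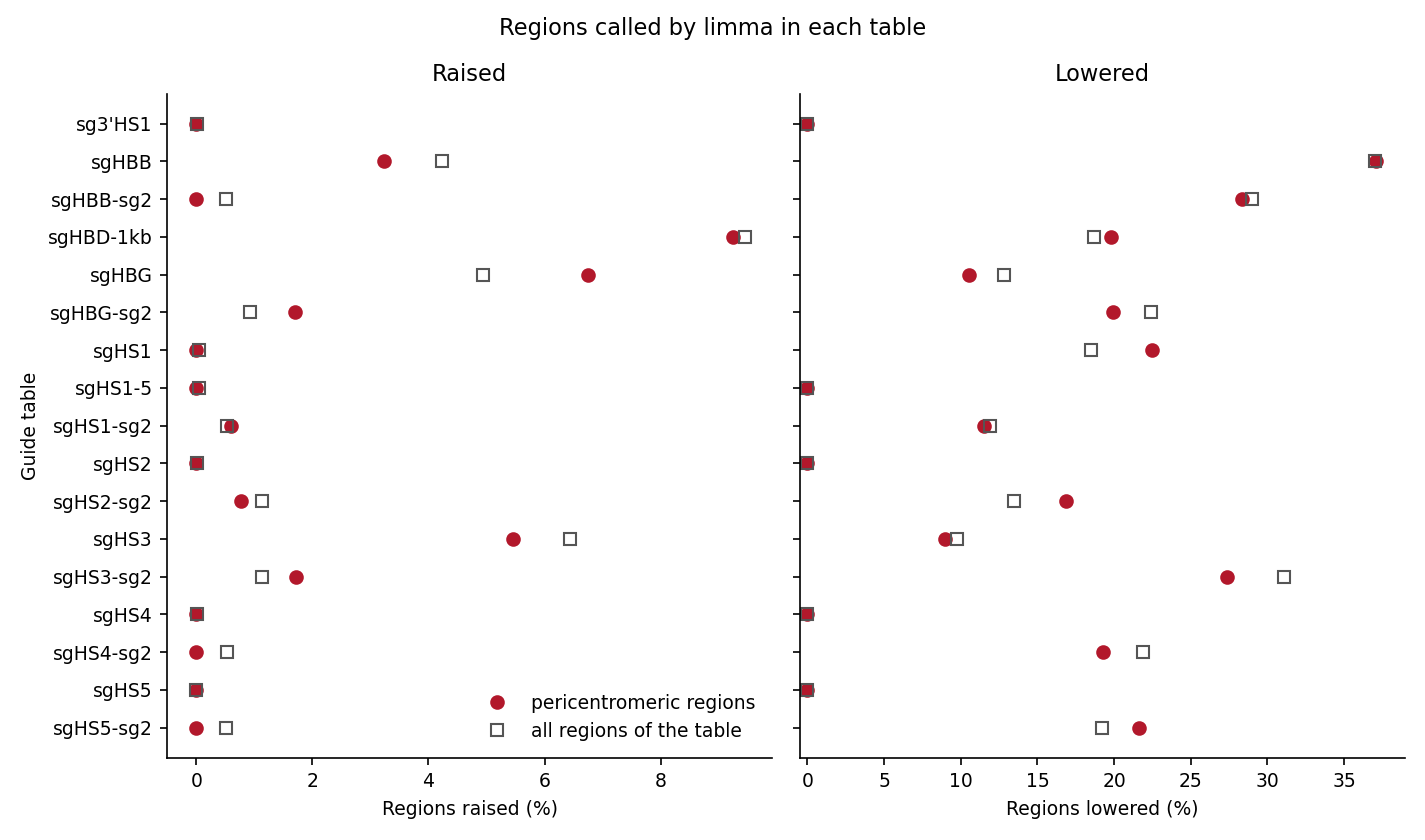
Percent of regions that limma called raised (left) and lowered (right) in each guide table; filled circles are pericentromeric regions and open squares all regions of the table. With all tables summed, 1.58% of pericentromeric and 1.66% of all regions were raised, and 11.4% and 11.2% lowered; single tables differed by more, as sgHBG (6.75% and 4.94% raised) and sgHS3-sg2 (27.4% and 31.1% lowered).

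The lowered regions came from few loci. The 549 calls fell on 103 loci, of which 101 were listed in all 17 tables, and 19 loci were lowered in 10 or more tables. Regions listed in all 17 tables were lowered in 25.0% of cases, pericentromeric or not (25.0% of the others), and had medians of 6.75 and 7 sgGal4 reads. None of the 814 pericentromeric regions listed in 1 table was lowered, nor was any of the 24990 others listed in 1 table. The median log2 ratio of regions listed in 1 table was 0.78 (0.80 for the others). At loci listed in all 17 tables it was -1.15, pericentromeric or not. The ratio thus went with the listing in both sets. The lowered regions had a median of 6.5 sgGal4 reads and 1 guide read, and 164 of them (29.9%) had 0 reads in every guide library. The same sgGal4 reads enter each of these calls.

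By table, 69 pericentromeric regions were lowered in sgHBB (37% of all regions were), 64 in sgHS3-sg2 (31.1% of all), 60 in sgHBD-1kb (18.7% of all) and 53 in sgHBB-sg2 (29% of all). There were 50 in sgHS5-sg2 (19.2% of all), 47 in sgHBG-sg2 (22.4% of all), 44 in sgHS2-sg2 (13.5% of all) and 43 in sgHS4-sg2 (21.9% of all). There were 38 in sgHS1-sg2 (11.9% of all), 33 in sgHS1 (18.5% of all), 25 in sgHBG (12.8% of all) and 23 in sgHS3 (9.76% of all). In sg3'HS1, the pool, sgHS2, sgHS4 and sgHS5 limma lowered 0 pericentromeric regions and 0% of all regions. The region lowered in the most tables, 12, was on chromosome 8 from 47683163, with SPIDR as its nearest gene, a mean of 7.25 sgGal4 reads and a lowest log2 ratio of -4.15.

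The lowest log2 ratios among lowered regions came from tables with 1 guide library. In sgHS2-sg2 the region chr20:29600883-29601182, 0.181 Mb from a gap, had 0 guide reads and 19, 31, 5 and 1 sgGal4 reads (log2 ratio -4.48, limma adjusted p = 0.0288). A region of chromosome 1 from 144016519, nearest to FAM72D at 103500 bp, had 0 guide reads and 15, 14, 4 and 3 sgGal4 reads (log2 ratio -4.28, limma adjusted p = 0.0288). In sgHBB the regions in SLC13A2, LIPI and MICAL3 all had 0 guide reads, with log2 ratios of -4.19, -4.18 and -4.17. All of these were read at 0 in the lone guide library, which limma took to vary like the sgGal4 libraries, and on recovered reads with a pseudocount of 1 none of the 5 was called. Both sgHS2-sg2 calls were also lost in limma without any 1 of the sgGal4 libraries (adjusted p 0.0589 to 0.0794).

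The highest called region was in an intron of ANK1, the gene for erythrocyte ankyrin, on chromosome 8 from 41702379 to 41702678, 2.14 Mb from a gap. The sgHS3 libraries had 617, 185 and 243 reads there, and sgGal4 had 2, 16, 3 and 2. All 3 guide libraries lay above all 4 sgGal4 libraries. The log2 ratio was 5.19 and the limma difference of log2 levels 5.39 ± 0.71 (SE, adjusted p = 0.00804), higher than the spread between libraries. Its best site matched the sgHS3 candidate over 7 bases next to the motif and at 10 of 20 positions in all. The call was lost in limma when any 1 of the 3 sgHS3 libraries was left out, with adjusted p of 0.0712, 0.0574 and 0.0644. The pool libraries had 176, 324, 1, 3, 650 and 398 reads in the overlapping region (log2 ratio 3.85, limma adjusted p = 0.12), and the sgHS2-sg2 library had 12 reads (log2 ratio -0.06).

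The next raised region of the sgHS3 table by ratio, chr19:29885191-29885490, lies 131572 bp from a start of VSTM2B, its nearest gene, and had 80, 8 and 10 reads against 0, 0, 0 and 1 in sgGal4, with a log2 ratio of 3.29 (limma adjusted p = 0.0355). It holds the site shown above, with 10 bases of the candidate next to the motif. Every guide library was above every sgGal4 library. The call was lost in limma without any 1 of the sgHS3 libraries (adjusted p 0.0809 to 0.113), without sgGal4 replicate 1 (0.0781) and without sgGal4 replicate 2 (0.0599). Its log2 ratio was 2.09 without guide replicate 1 and 4.22 without sgGal4 replicate 4.

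In sgHBG the region chr22:18841906-18842205, nearest to DGCR6 at 51598 bp, had 28, 6, 24 and 50 guide reads and 0 reads in all 4 sgGal4 libraries. It had a log2 ratio of 3.20 (limma adjusted p = 0.0128) and kept its call in limma under each library left out. The region chr19:28727044-28727343, nearest to UQCRFS1 at 976864 bp and listed in this table only, had 68, 1, 34 and 54 guide reads and 1, 1, 1 and 0 in sgGal4 (log2 ratio 3.11, limma adjusted p = 0.0262). Replicate 2, with 1 read, overlapped the sgGal4 libraries; it was the shallowest sgHBG library, with 17857 reads in the table against 58827 to 106873. Leaving out guide replicate 1, 3 or 4 ended this call in limma (adjusted p 0.0724 to 0.0755), as did leaving out sgGal4 replicate 1 (0.0648), and without sgGal4 replicate 3 the log2 ratio was 3.92. The highest pericentromeric ratio of the sgHBG table, 3.25 in MICAL3 from chr22:18402905, was not called (102, 0, 55 and 90 reads against 2, 4, 1 and 1, limma adjusted p = 0.0633).

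The NOTCH2 and C20orf203 regions given next were each listed in 1 table only, that of their guide. In sgHBD-1kb the highest called region lay 328 bp from the start of ASXL1, which codes for a chromatin regulator. The region chr20:30945655-30945954 had 65 and 58 reads against 3, 10, 2 and 0, with a log2 ratio of 3.36 (limma adjusted p = 0.011), and its call was lost in limma without guide replicate 1 (0.102) or 2 (0.0623). In sgHBG-sg2 an intronic region of NOTCH2, a receptor gene, had 13 and 49 reads at chr1:120543738-120544037 and 0 in all sgGal4 libraries (log2 ratio 3.52, limma adjusted p = 0.017); without guide replicate 2 its adjusted p was 0.247 and its log2 ratio 2.10, and without guide replicate 1 the ratio was 4.23. In sgHBB, with 1 library, a region in C20orf203 had 126 reads against 1, 0, 1 and 1 (log2 ratio 3.89, limma adjusted p = 0.0475). A region 272 bp from the start of ZNF25, a zinc-finger gene, had 143 reads against 0, 16, 1 and 1 (log2 ratio 3.62, limma adjusted p = 0.0472). Both sgHBB calls were lost on recovered reads with a pseudocount of 1 (limma adjusted p 0.132 and 0.173) and without sgGal4 replicate 3 (limma adjusted p 0.0555 and 0.0723); that at C20orf203 was also lost without replicate 1 (0.0545) and that at ZNF25 without replicate 4 (0.0619).

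There were 3 loci that were raised in more than 1 table, and they are named after their values were seen. A locus on chromosome 9 from 44992655 to 44993349, 2.32 Mb from a gap, was raised in sgHBG, sgHBG-sg2 and sgHS3-sg2 and listed in 15 tables. Its regions do not all cover the same bases. The sgHBG region had 37, 15, 40 and 90 reads against 3, 18, 1 and 2 (log2 ratio 2.29, limma adjusted p = 0.0131). That of sgHBG-sg2 had 21 and 30 reads against 0 in all sgGal4 libraries (log2 ratio 3.16, limma adjusted p = 0.0122), and its call was lost without either guide library (0.0655 and 0.154). That of sgHS3-sg2 had 57 reads against 2, 5, 1 and 1 (log2 ratio 2.46, limma adjusted p = 0.0207). In the other 12 tables the log2 ratio lay between -0.44 and 0.73. The other two loci had as nearest genes PHF12 on chromosome 17 (sgHBB and sgHBD-1kb) and ACTL10 on chromosome 20 (sgHBD-1kb and sgHS2-sg2).

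The 3 highest log2 ratios in sgHS4 and the highest in sgHS5 exceeded those of all called pericentromeric regions but were not called. In sgHS4 the region chr16:48245857-48246156, in an intron of ABCC11, a transporter gene, had 2155 and 952 reads against 0, 0, 2 and 0. Its log2 ratio of 7.03 was the third highest of the 10734 regions in the table (limma difference 7.55 ± 1.11, SE, adjusted p = 0.111). Its site matches the candidate over 16 bases next to the motif and at 17 of 20 positions. The authors' deposited table tags this region as off-target, as it does the overlapping region in the pool, which had 72, 90, 7, 4, 0 and 1 reads (log2 ratio 2.33). The adjusted p of the sgHS4 region ran from 2.34e-07 (limma with a trend) to 0.834 (without guide replicate 1). The region passed the threshold in limma on recovered reads with a pseudocount of 1 (0.046) or 5 (0.000224), with each library centred on the rest (0.0138), among regions with at least 10 mean reads (0.00675), without guide replicate 2 (0.0193) and without both shallow sgGal4 libraries (0.0201). Its log2 ratio was 5.77 without guide replicate 1, 7.70 without guide replicate 2, 8.03 without sgGal4 replicate 3 and 9.35 without both shallow sgGal4 libraries. The calls of this table thus changed with the scale, the filter and the library left out.

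The next 3 pericentromeric regions of the sgHS4 table by ratio also hold a match, for which they were chosen after their values were seen. The region chr22:18400549-18400848, in an intron of MICAL3, an actin-oxidising enzyme gene, had 1667 and 254 reads against 3, 5, 0 and 1 (log2 ratio 6.34, limma adjusted p = 0.0908). The region chr2:97080051-97080350, nearest to NCAPH at 49982 bp, which codes for a condensin subunit, had 836 and 98 reads against 0, 3, 0 and 1 (log2 ratio 5.64, limma adjusted p = 0.131). The region chr16:48976592-48976891, nearest to N4BP1 at 332650 bp, had 157 and 47 reads against 0 in all sgGal4 libraries (log2 ratio 4.15, limma adjusted p = 0.168). The matches span 11, 10 and 11 bases. In each of these regions both guide libraries lay above all 4 sgGal4 libraries. The log2 ratios at MICAL3 and NCAPH rested largely on guide replicate 1: they were 4.37 and 3.78 without it, and 7.14 and 6.43 without guide replicate 2. All 3 were called in limma without both shallow sgGal4 libraries (adjusted p 0.0201 to 0.0257) and without guide replicate 2 (0.0153 to 0.0499). The fifth to seventh by ratio hold a match too: an exon of EGFR, the epidermal growth factor receptor gene (152 and 23 reads, log2 ratio 3.05), an EFCAB8 intron (92 and 8 reads, 2.70) and a region 316530 bp from PARP8 (68 and 32 reads, 2.65).

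In sgHS5 the region chr19:29037095-29037394, 666828 bp from the start of UQCRFS1, had 965, 280 and 158 reads against 7, 9, 1 and 1. Its log2 ratio of 5.94 was the fifth highest of 16655 regions (limma adjusted p = 0.0582). It carries 10 bases of the candidate next to the motif. It was called in limma with a trend (0.00288), without guide replicate 1 (0.0118, with a log2 ratio of 4.10), without both shallow sgGal4 libraries (0.00588), with centred libraries (0.01) and on recovered reads with a pseudocount of 1 (0.0439), and its adjusted p rose to 0.315 without guide replicate 2. In the pool the overlapping region had 9, 13, 0, 1, 312 and 168 reads (log2 ratio 2.97, limma adjusted p = 0.345).

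The 6 pool libraries differed from each other at these places, a pattern taken up after the values were seen. Per 100000 listed reads, the ABCC11 region had 36.6 and 25.8 in replicates 1 and 2, and 0 and 0.988 in replicates 5 and 6. The region near UQCRFS1 had 4.57 and 3.73 in replicates 1 and 2, and 148 and 166 in replicates 5 and 6. The ANK1 region was high in all 4 of these libraries, with 89.4 and 93.0 in replicates 1 and 2 and 309 and 393 in replicates 5 and 6. Replicates 3 and 4 had 20918 and 20447 listed reads, against 101221 to 348211 in the others, and at most 7 reads at any of the 5 regions.

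**Figure D4:**
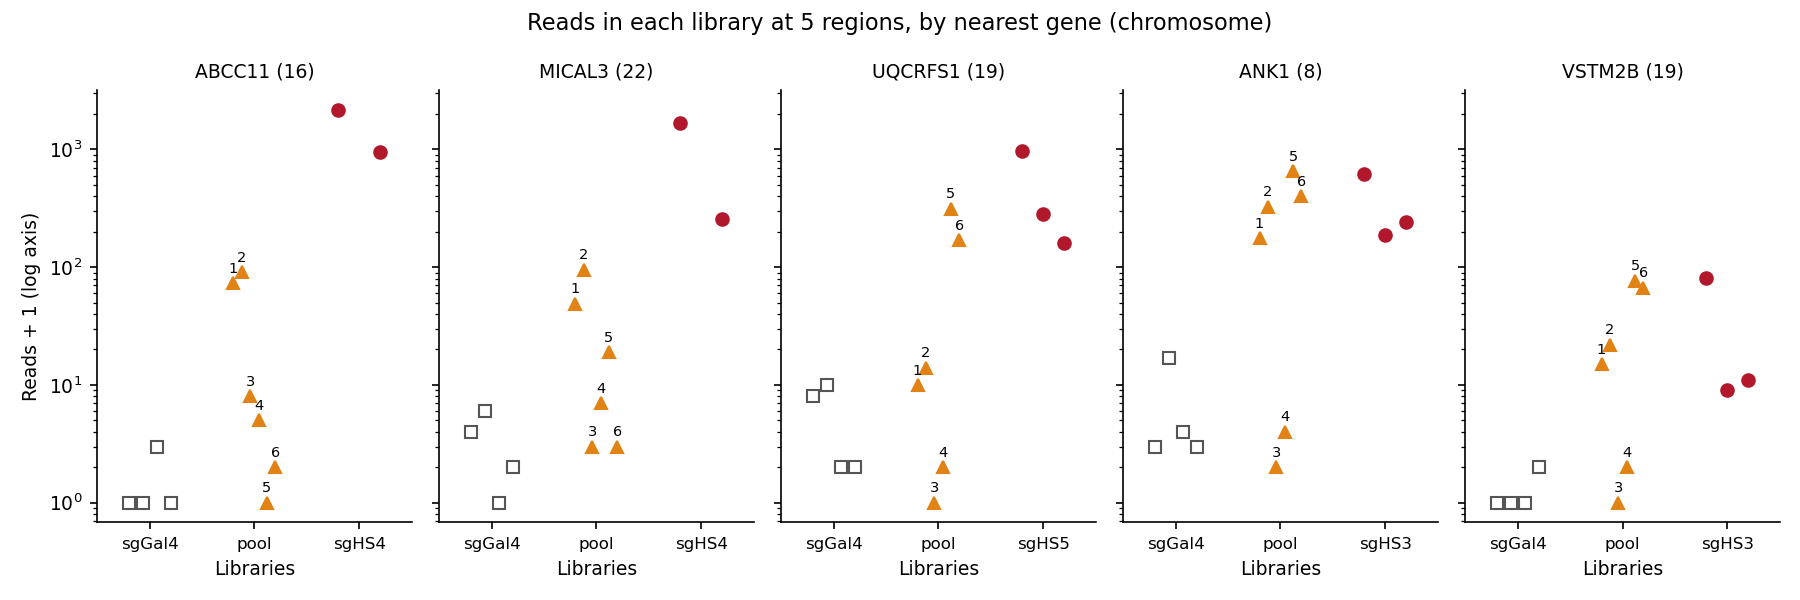
Reads plus 1 on a log axis in each sgGal4 library (open squares), each pool library (triangles, numbered by replicate) and each library of the guide named on the axis (circles), at 5 pericentromeric regions headed by their nearest gene and chromosome. Pool replicates 1 and 2 had 72 and 90 reads at ABCC11 and replicates 5 and 6 had 0 and 1, whereas at UQCRFS1 replicates 5 and 6 had 312 and 168 and replicates 1 and 2 had 9 and 13.

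Over the 11 tables with a candidate site, 49 of 3415 pericentromeric regions (1.43%) held a match of at least 10 bases next to the motif, and 1355 of the other regions (1.35%). The pool was searched for the sgHS3 candidate only. Its regions at ABCC11, MICAL3 and UQCRFS1, which span the sites shown for sgHS4 and sgHS5, therefore count as without a match. Of the 49, 44 had a log2 ratio of at least 1 (89.8%), against 17.3% of the pericentromeric regions without a match and 17.3% of all regions of the 17 tables. Outside the pericentromeric windows the same shares were 85.9% and 19.2%. The median log2 ratio was 2.30 with a match and 0.08 without. The candidate was chosen from high regions elsewhere in the same tables and libraries, so these shares are a description with no test. The number of tables that list a region differs between the sets: 43 of the 49 were listed in 1 table and none in all 17, whereas 1397 of the regions without a match were listed in all 17, and 0.358% of those reached a log2 ratio of 1. Among pericentromeric regions listed in 1 table, 38 of 43 with a match had such a ratio (88.4%), against 39.4% of the 650 without, and outside the windows the shares were 83.6% and 38.7%. Of the 49, limma called 5 raised, and of all 3415 it called 70, so 65 of the calls fell on regions without a match. The 49 made up 1.43% of the 3415, so calls were more frequent with a match than without. Over all 143198 regions limma called 1.66% raised. Calls also went with the listing. Over the 17 tables, pericentromeric regions listed in 1 table were raised in 3.93% of cases and those listed in all 17 in 0%. Calls with and without a match were not compared within a listing, and the difference in frequency was not tested.

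By table, all 9 matched regions of sgHS4 had a log2 ratio of at least 1, as had 33 of the unmatched (12.6% of all regions of the table). In sgHS3-sg2 it was 9 of 11 (9.56% of all regions), in sgHS2-sg2 10 of 13 (27.2% of all) and in sgHBB 5 of 5 (18.4% of all). The pericentromeric regions with a log2 ratio of at least 3 numbered 38, of which 36 were in tables with a candidate site and 12 held a match. Those without one include the ANK1 region and the highest region of sg3'HS1, which lies 134 bp from the start of ROCK1, a kinase gene, and had 111 and 7 reads against 0, 0, 0 and 1 (log2 ratio 3.81, limma adjusted p = 0.0987). The region the authors' deposited table tags as off-target for sgHS3, chr12:31884882-31885181, 2976 bp from AMN1, was called raised with 36, 6 and 5 reads against 3, 3, 0 and 0 (log2 ratio 2.40, limma adjusted p = 0.033). Its best site matched the candidate at 16 of 20 positions but over 3 bases next to the motif.

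**Figure D5:**
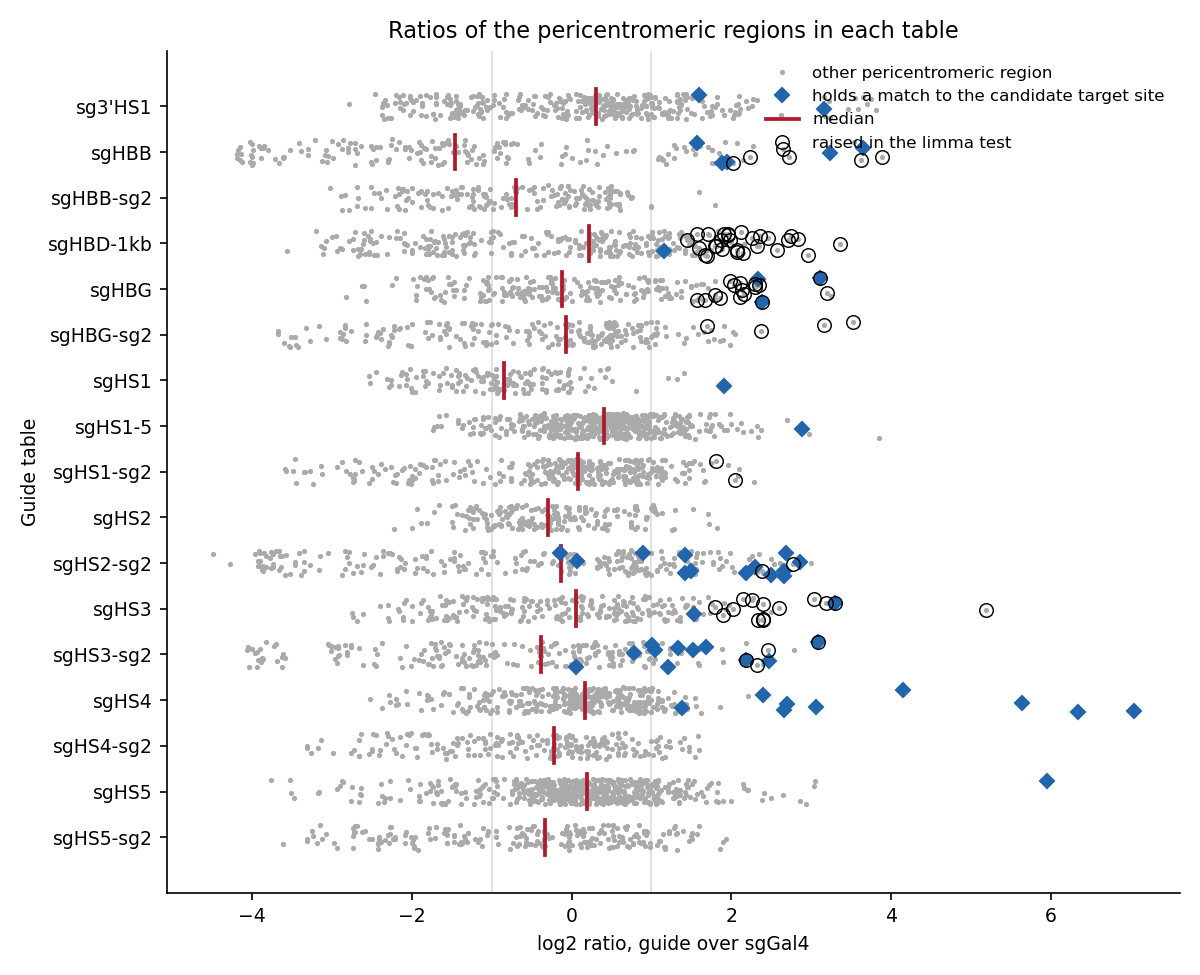
log2 ratio of guide over sgGal4 (horizontal) for every pericentromeric region of each guide table (vertical); grey points are regions, diamonds regions with at least 10 matching bases next to the motif, vertical bars the medians and open circles the regions that limma called raised. The 4 highest points of the sgHS4 row and the highest of the sgHS5 row are diamonds, at 7.03, 6.34, 5.64, 4.15 and 5.94.

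Some matched regions are copies of each other. In sgHBG the regions chr15:20278043-20278342 and chr15:21285223-21285522, nearest to GOLGA6L6 (468922 bp) and POTEB2 (213730 bp), hold the same site, and all 291 bases that align between them are identical. They had 32, 2, 6 and 16 reads and 24, 0, 14 and 23 reads, with 0 in all sgGal4 libraries. The log2 ratios were 2.38 and 2.33, and limma called the former (adjusted p = 0.0414) and not the latter (0.0506). In sgHS3-sg2, regions at chr21:9433275, chr20:25878196 and chr20:29427531 share a site and are 97.25% to 98.89% identical over 271 to 291 aligned bases. They had 32, 16 and 14 reads in the only guide library (log2 ratios 2.47, 1.52 and 1.21; none was called). A further pair of sgHS3-sg2, at chr2:91993991 and chr15:20101094, shared a site at 97.95% identity, with 18 and 14 reads. These 5 regions lie 0.00811 to 0.441 Mb from a gap. The sites are shown because they recur in duplicated sequence.
Chromosome 15 pair, sgHBG: GtaccAggCCACCCATGGGTggg
Chromosomes 20 and 21, sgHS3-sg2: AtGAggaggaCTGTGGATAAagg
Chromosomes 2 and 15, sgHS3-sg2: AaagAgttacCTGTGGATAAagg

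Gene families that lie around centromeres were counted, by gene symbol, over the regions whose nearest protein-coding start was theirs and lay within 10 kb. That count was 0 for the POTE family, for FRG1 and FRG2, and for the duplicated chromosome 9 families CNTNAP3, FOXD4, CBWD, SPATA31, PGM5 and AQP7. A gene listed under another symbol, or farther than a nearer start of another gene, would not be counted. Near 27 zinc-finger genes there were 181 regions, with a median log2 ratio of 0.48. Of these, 2 were raised (1.10%, ZNF25 in sgHBB and ZNF892 in sgHS3) and 4 lowered (2.21%). Among all pericentromeric regions within 10 kb of a start, 2231 in number, 37 were raised (1.66%) and 142 lowered (6.36%) and the median was 0.28. Over all 143198 regions limma called 1.66% raised and 11.2% lowered. Near ANKRD36, ANKRD36B and ANKRD36C, ankyrin-repeat genes, 11 regions had a median of 1.05 and 1 was raised (9.09%), in sgHBG. The 18 regions near NBPF10 and NBPF9 had a median of -0.92 with 3 lowered (16.7%). The 18 near TPTE and TPTE2, which code for phosphatase-like proteins, had a median of -1.01 with 6 lowered (33.3%). The TPTE locus was listed in all 17 tables, and 25.0% of the regions at such loci were lowered. The 3 lowered NBPF10 regions lay at a locus listed in 15 tables. Of the 1836 pericentromeric regions at loci listed in 2 to 16 tables, 10 were lowered (0.545%), and these 3 are among the 10. The NBPF10 regions had a median of 8.75 sgGal4 reads. Pericentromeric regions had medians of 3.25 at loci listed in 2 to 16 tables and 6.75 at those in all 17. For paralogous families, reads kept as uniquely aligned can still belong to another copy, so these assignments are uncertain.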

How the data were processed

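DNA bound by a tagged dCas9 in K562 cells was sequenced; 46 of the 61 libraries were used and 15 were not analysed here. Per the labels, reads were aligned to hg19 and unique alignments kept; the submitters' processing notes name Bowtie and Picard, while for the peak caller and the normalisation nothing is stated in them. Values deposited by the authors are log2 levels, 1 column per library, scaled within each table, so tests stayed within a table. Whole reads were recovered from these levels (tolerance 0.01) and ratios recomputed. limma 3.58.1 in R 4.3.3 was fitted to all regions of each table, with Benjamini-Hochberg adjustment. It was tried on data simulated with normal noise. A log2 change of 4 was recovered in 2% of cases in sgHS2-sg2, 60% in sgHS5 and 84% to 100% in the other tables. For a change of 2 it was 0% in sgHS2-sg2, 4% in sgHS5 and 12% to 65% in the others. In the data, limma called 97 regions raised and 1154 lowered in sgHS2-sg2. In sgHS4, with 94% recovered for a change of 4, regions with log2 ratios of 7.03, 6.34 and 5.64 were not called. The simulated shares differed from the calls in both tables. They therefore cannot tell what an absence of calls means in sgHS5, sgHS4 or any other table. Gene places come from protein-coding GENCODE transcripts on GRCh37. Named are the 5 loci listed in most tables, the 5 with most sgGal4 reads, up to 10 raised and 5 lowered regions of most extreme ratio, regions the authors tagged, and the highest region of each table; other names were chosen after their values were seen. Some items that this rule names are not reported here. The members and lists were chosen with earlier results of these data known. Alternatives covered the scale, read filter, centring, limma trend, replicate block, libraries left out and distance limit.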

Additional observations from a re-analysis of the deposited data

Results flagged for a closer look

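The share of listed reads in pericentromeric regions was 3.395% in sgGal4 replicate 3 in the table of the pool, far from the other 3 sgGal4 libraries there (3.086% to 3.134%), with a gap of 0.8445 of the whole range. This replicate had 18353 reads in that table. It was the 1 case among 26 groups of libraries examined, and chance gives about 1 in 20. Replicate 3 had the highest share of the 4 sgGal4 libraries in all 17 tables, with a median of 4.14% against 3.41%, 3.37% and 3.70% in replicates 1, 2 and 4.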

How the results depend on the processing

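The main counts were 76 raised (1.58%, 1.66% of all regions) and 549 lowered (11.4%, 11.2% of all). On recovered reads limma called 132 raised (2.75%, 1.89% of all regions) and 112 lowered (2.33%, 2.48% of all) with a pseudocount of 1, and 66 lowered (1.37%, 1.55% of all) with a pseudocount of 5; with libraries centred on the rest 230 were raised (4.78%, 4.36% of all), with a trend 136 (2.83%, 2.84% of all), and without both shallow sgGal4 libraries 1135 (23.6%, 24.4% of all). Among regions with a mean of 10 reads or more, 47 were raised (8.32%, 9.79% of all) and 15 lowered (2.65%, 2.08% of all), and at a limma p of at most 1e-05 there were 0 of each. With 1 replicate number left out of every table that had it, raised counts ran from 16 without guide replicate 1 (0.333%, 0.391% of all) to 169 without sgGal4 replicate 4 (3.51%, 3.52% of all). Lowered counts ran from 245 without guide replicate 1 (5.095%, 5.066% of all) to 549 without guide replicate 5 or 6 (11.4%, 11.2% of all). A guide with 1 library kept it. The calls given above for sgHBB, sgHS2-sg2 and sgHS3-sg2 thus make up most of the 16 and of the 245. Replicate 5 was left out only of the pool and sgHS2, and replicate 6 only of the pool. Neither table had lowered regions, so 549 is the main count unchanged. Raised counts were 21 (0.437%, 0.575% of all), 34 (0.707%, 0.832% of all) and 158 (3.29%, 3.24% of all) without sgGal4 replicate 1, 2 or 3. They were 34 (0.707%, 0.714% of all) and 49 (1.02%, 1.17% of all) without guide replicate 2 or 3. Lowered counts were 339 without sgGal4 replicate 1 (7.05%, 6.94% of all). The cause was not tested. With a limit of 1 Mb there were 1142 regions (0.797%) and 304 loci, 14 raised and 144 lowered. With 5 Mb there were 9063 regions (6.33%) and 2706 loci, 139 raised and 1104 lowered. These counts grow with the number of regions in the window. Over all regions 1.66% were raised and 11.2% lowered. Within 0.5 Mb of a gap it was 1.71% and 9.29%, and from 0.5 to 1 Mb 0.955% and 14.5%. The difference of the pericentromeric median from the rest was 0.063 in sgGal4 at 10 reads or more and -0.12 in guide libraries at 1 Mb. For the ratio it was -0.17 at 1 Mb, 0.085 without both shallow sgGal4 libraries and 0.0017 for regions listed in 1 table. With 1 replicate number left out, the difference for the ratio ran from -0.081 to 0.040 (0.040 without sgGal4 replicate 4, 0.03 without guide replicate 1). Whether replicate numbers pair the libraries was not settled. In no table with 3 or more pairs did every same-numbered correlation exceed 0.1, which at such low reads cannot exclude pairing. Listed reads of pool replicates 1 to 4 were 196951, 348211, 20918 and 20447, and of sgGal4 there 88378, 163456, 18353 and 18413. Those of sgHBG replicates 1 to 4 were 67063, 17857, 58827 and 106873, and of sgGal4 there 52179, 93779, 9205 and 8902. With the replicate block 315 were raised (6.55%, 7.08% of all), of which 72 were among the 76, and 558 lowered (11.6%, 11.6% of all), of which 474 were among the 549; the sgHS4 regions at ABCC11, MICAL3, NCAPH and N4BP1 were then called in limma (adjusted p 0.00345, 0.0126, 0.0185 and 0.00779). Without both shallow sgGal4 libraries the raised regions named at C20orf203, NOTCH2, DGCR6, VSTM2B, ANK1, chr9:44992655 and chr19:28727044 had log2 ratios from 5.08 to 6.10.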
